A study of Rattus norvegicus with 8 samples.

Results

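SHPCs taken from Ret/PH rat livers after BM-MC transplantation were compared with MHs. The comparison rests on 5 of the 8 samples of the series, 3 of SHPCs with BM-MCs (replicates 1 to 3) and 2 of MHs (replicates 1 and 2), chosen by their titles. The other samples were 3 of SHPCs from control livers, which entered the fit and are given for reference. All animals were F344 rats, whose labels read DPPIV+ whereas the methods describe DPPIV- female recipients. By the methods, all livers had received retrorsine, an alkaloid that blocks the division of resident hepatocytes, and partial hepatectomy (Ret/PH), and BM-MCs of DPPIV+ donors were given through the spleen to 1 of the groups. BM-MCs are a culture of adherent bone marrow cells that was not purified further. Cells were cut from stained frozen sections by laser microdissection (LMD) at the study's single time point. The labels place the MHs and the control SHPCs in recipient control livers, so that, as labelled, the comparison joins cell type and transplantation. The study's text instead speaks of MHs around SHPCs and of MHs of transplanted livers, and which livers gave these MHs is therefore not certain. No label or method says which animal a sample came from. The p-values thus rest on sample spread alone, part of which may be technical, and could be too low.

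SHPCs are clusters of small hepatocyte-like cells that appear and expand in livers whose own hepatocytes cannot divide. A dividing cell first copies its DNA in S phase and then turns on a separate set of genes for chromosome condensation, spindle assembly and cytokinesis, while a resting hepatocyte spends its transcripts on plasma proteins, ammonia and amino acid disposal, bile acids and drug metabolism. The comparison addresses which genes and functions separate SHPCs with BM-MCs from MHs.

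Labelled RNA was read in 1 colour on 8 Agilent rat arrays of 1 slide. A level below is the log2 ratio of a probe's signal to its array's 75th percentile, and a difference is a difference of such levels. The share of spots marked well above background was 57.0% to 61.5% on the arrays with complete marks, and the number of arrays limits the precision. The MHs and control SHPC replicates 1 and 2 lay in the first set of 4 arrays of the slide, and control SHPC replicate 3 and all SHPCs with BM-MCs in the second. No value within a set can therefore be had for SHPCs with BM-MCs against MHs, and a fit with the set as a block rests on control SHPC replicate 3. In that fit 0 probes were called higher and 4 lower, and the median of the mitosis list described below was 1.82. The hepatocyte label was borne out by its markers in both groups, with a summed signal of 10 hepatocyte markers of 827 to 931 times the 75th percentile in MHs and 778 to 926 in SHPCs with BM-MCs. In such bulk samples fewer cells of a type and less RNA per cell cannot be told apart.

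Of the 46 genes that were higher with BM-MCs than in MHs by the test, 17 belonged to a list of mitosis genes. They included cyclins A2 and B1, the kinases Cdk1 and Plk1, topoisomerase Top2a and the proliferation marker Mki67, all higher in SHPCs with BM-MCs by 1.76 to 2.53 on the log2 scale. Genes of liver metabolism and plasma proteins were not called. The transcription factor Onecut1 and the nuclear receptor Nr4a1 were also higher. Few genes were called lower, led by Fhl5.

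limma with Benjamini-Hochberg adjustment called 64 probes higher (0.269% of 23835 tested) and 9 lower (0.0378%) at an adjusted p under 0.05. With the brightest probe of each gene, this came to 46 genes higher (0.308% of 14934) and 5 lower (0.0335%), and the groups did not overlap in any of the 51. At an unadjusted p under 0.05 limma gave 1025 genes higher (6.86%) and 1006 lower (6.74%). Every SHPC sample with BM-MCs was above both MH samples for 15% of the genes tested and below both for 18.1%. The methods' t-test called 0 probes in either direction after Benjamini-Hochberg adjustment. The number of calls changed with single samples, control SHPCs included, which enter through the shared spread. The differences moved less, for example from 1.91 to 2.29 for Mki67 and from -5.19 to -4.29 for Fhl5 over the 8 samples left out. The number of probes higher was 0 without MH replicate 1, 7 without MH replicate 2, 6, 3 and 19 on leaving out control SHPC replicates 1, 2 and 3, 135 without BM-MC replicate 1 and 18 without BM-MC replicate 2. The number lower was 14 without BM-MC replicate 1, 4 without either MH sample, BM-MC replicate 2 or control SHPC replicate 1, and 3 and 5 on leaving out control SHPC replicates 2 and 3. Of the 22 called genes named by size or list below, 1, Fhl5, passed with each of the 8 samples left out in turn. Control SHPCs against the same MHs gave 128 genes higher (0.857%) and 31 lower (0.208%), and SHPCs with BM-MCs against control SHPCs gave 9 genes higher (0.0603%) and 0 lower (0%).

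**Figure D1:**
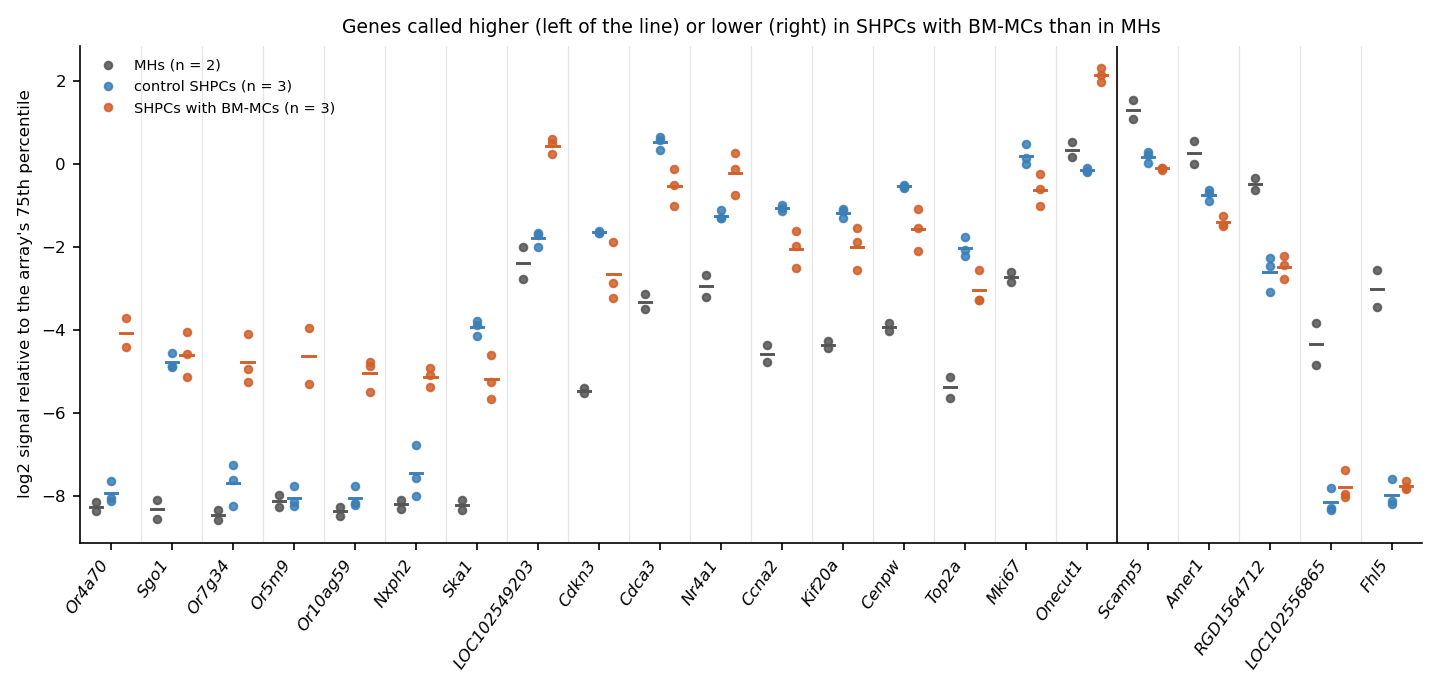
Level of each gene named by size or list and called between MHs and SHPCs with BM-MCs, as log2 signal relative to the 75th percentile of the array. Each dot is 1 sample and each bar a group mean. In all 22 genes the dots of SHPCs with BM-MCs lie apart from those of MHs, and the dots of MHs and of SHPCs with BM-MCs near -8 were not well above background.

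Mitosis genes had the highest median of the 23 functional lists examined. Of a list of 75 genes of mitosis and chromosome segregation, 70 had a probe and 58 passed the filter on dim signals. Among these 58, 17 were called higher and 0 lower, 55 had a difference above 0, and 50 had every BM-MC sample above both MHs. Over all genes tested, 0.308% were called higher, 7109 of 14934 lay above 0, and 15% had every BM-MC sample above both MHs. The median difference of the 58 was 1.59, ranging from -0.42 to 3.72, beside -0.02 over all genes tested. Some members passed the filter only because they were bright in SHPCs, so these counts describe the members measured. By sample, the list median relative to the mean of the MHs was 1.19, 1.58 and 1.79 in SHPCs with BM-MCs, and -0.08 and 0.08 in MHs. Control SHPCs stood at 2.30, 2.51 and 2.04, each above every sample with BM-MCs. The number of called members was 0 without MH replicate 1 or 2 or control SHPC replicate 2, 1 without control SHPC replicate 1 or BM-MC replicate 2, 2 without the last control SHPC sample, replicate 3, and 28 once BM-MC replicate 1 was dropped. Other settings also ended most of these calls, with 5 members called after median scaling, 1 after quantile scaling, and 0 with no filter, with the 5 compared samples alone or with the set of arrays as a block. The list median lay between 1.45 and 1.75 with each sample left out.

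Mki67, which coats chromosomes during mitosis and marks cycling cells, was at -2.83 and -2.61 in MHs and at -1.02, -0.60 and -0.25 in SHPCs with BM-MCs. All SHPC samples with BM-MCs were above both MHs, and replicate 1 was the lowest of them. The difference of 2.09 (standard error 0.25, adjusted p = 0.0313 from limma) is a 4.27-fold higher signal. All 4 Mki67 probes were called higher, by 2.09 to 2.56. In control SHPCs Mki67 was at 0.14, 0.48 and -0.01, and the difference of SHPCs with BM-MCs from them was -0.83 (adjusted p = 0.178 from limma).

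Among genes of mitotic entry, Ccna2, the cyclin of S phase and early mitosis, rose from -4.77 and -4.36 in MHs to -2.51, -1.97 and -1.62, a difference of 2.53 (standard error 0.26, adjusted p = 0.0286 from limma). The groups were well separated, and Ccna2 stood near -1 in each control SHPC sample. Ccnb1, the cyclin that drives entry into mitosis, rose by 2.25 (adjusted p = 0.0286 from limma), its partner kinase Cdk1 by 2.09 (adjusted p = 0.0471) and the mitotic kinase Plk1 by 1.76 (adjusted p = 0.0366). Cdkn3, a phosphatase that acts on cyclin-dependent kinases, rose by 2.79 (standard error 0.35, adjusted p = 0.0366 from limma), from -5.50 and -5.40 in MHs to -3.22, -2.87 and -1.88. Replicate 3 was the highest SHPC sample with BM-MCs for Cdkn3, as for Mki67 and Ccna2. The B-type cyclin Ccnb2 shows how close some members lay to the threshold, since its brightest probe was higher by 2.59 with an adjusted p of 0.0533 from limma while its other probe passed at 3.13 (adjusted p = 0.0366).

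For chromosome structure and attachment, Top2a, which untangles DNA before segregation, was at -5.63 and -5.12 in MHs and at -3.28, -3.27 and -2.55 in SHPCs with BM-MCs. It differed by 2.35 (standard error 0.28, limma adjusted p = 0.0313), with no overlap of the groups. Sgo1, which protects cohesion at centromeres, differed by 3.72 on its measured signals (standard error 0.31, adjusted p = 0.0199 from limma). It was not well above background in either MH sample, at -8.08 and -8.53, and stood at -4.58, -4.04 and -5.13 in SHPCs with BM-MCs, which made it at least 3.12-fold higher. This bound sets the mean of the bright group against, for each dim array, the lowest signal of any probe well above background or the signal of the probe itself, whichever was higher, and the bounds given below were made in this way. In control SHPCs Sgo1 was at -4.89, -4.55 and -4.86, inside the range of SHPCs with BM-MCs.

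Kif20a, a kinesin needed to complete cytokinesis, was at -4.43 and -4.27 in MHs and at -2.56, -1.87 and -1.55 in SHPCs with BM-MCs, a difference of 2.36 (standard error 0.27, adjusted p = 0.0313 from limma). Prc1, which bundles microtubules at the spindle midzone, rose by 2.08, Ect2, which starts the contractile ring, by 1.95, Nuf2, a part of the kinetochore, by 1.84, and Ube2c, which feeds the ubiquitin ligase that ends mitosis, by 1.83. All of these passed the test, with no overlap. Members of the list that were not called included the regulator Foxm1 at 0.96, the kinase Aurkb at -0.17 and the transcription factor Mybl2 at -0.42.

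Further division genes outside the list were called. Ska1, which couples kinetochores to microtubules, was at least 2.08-fold higher, with a difference of 3.04 on its measured signals (adjusted p = 0.0233 from limma), and was not well above background in either MH sample. Cdca3, which promotes entry into mitosis, was at -3.48 and -3.14 in MHs and at -1.0, -0.49 and -0.11 in SHPCs with BM-MCs, 6.83-fold higher (adjusted p = 0.0233 from limma). Cenpw, a centromere protein, rose by 2.35 (adjusted p = 0.0304 from limma), while its other probe was higher by 2.60 with an adjusted p of 0.0629. Chosen after their values were seen, the spindle genes Knstrn (2.27), Nek2 (2.11) and Haus4 (1.28), the cohesion regulator Cdca5 (1.53), the recombination gene Rad51ap1 (1.29) and the histone genes Hist1h2ai (1.72) and Hist2h2be (1.49) also rose. The other probe of Cdca5 (2.87, adjusted p = 0.277 from limma) and that of Rad51ap1 (0.57, adjusted p = 0.516) were not called. LOC100910502 rose by 1.81, and its probe shares a run of 15 bases with an Mki67 probe, ctgtgcttaaggaag, so that it cannot be read as a separate gene with certainty.

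**Figure D2:**
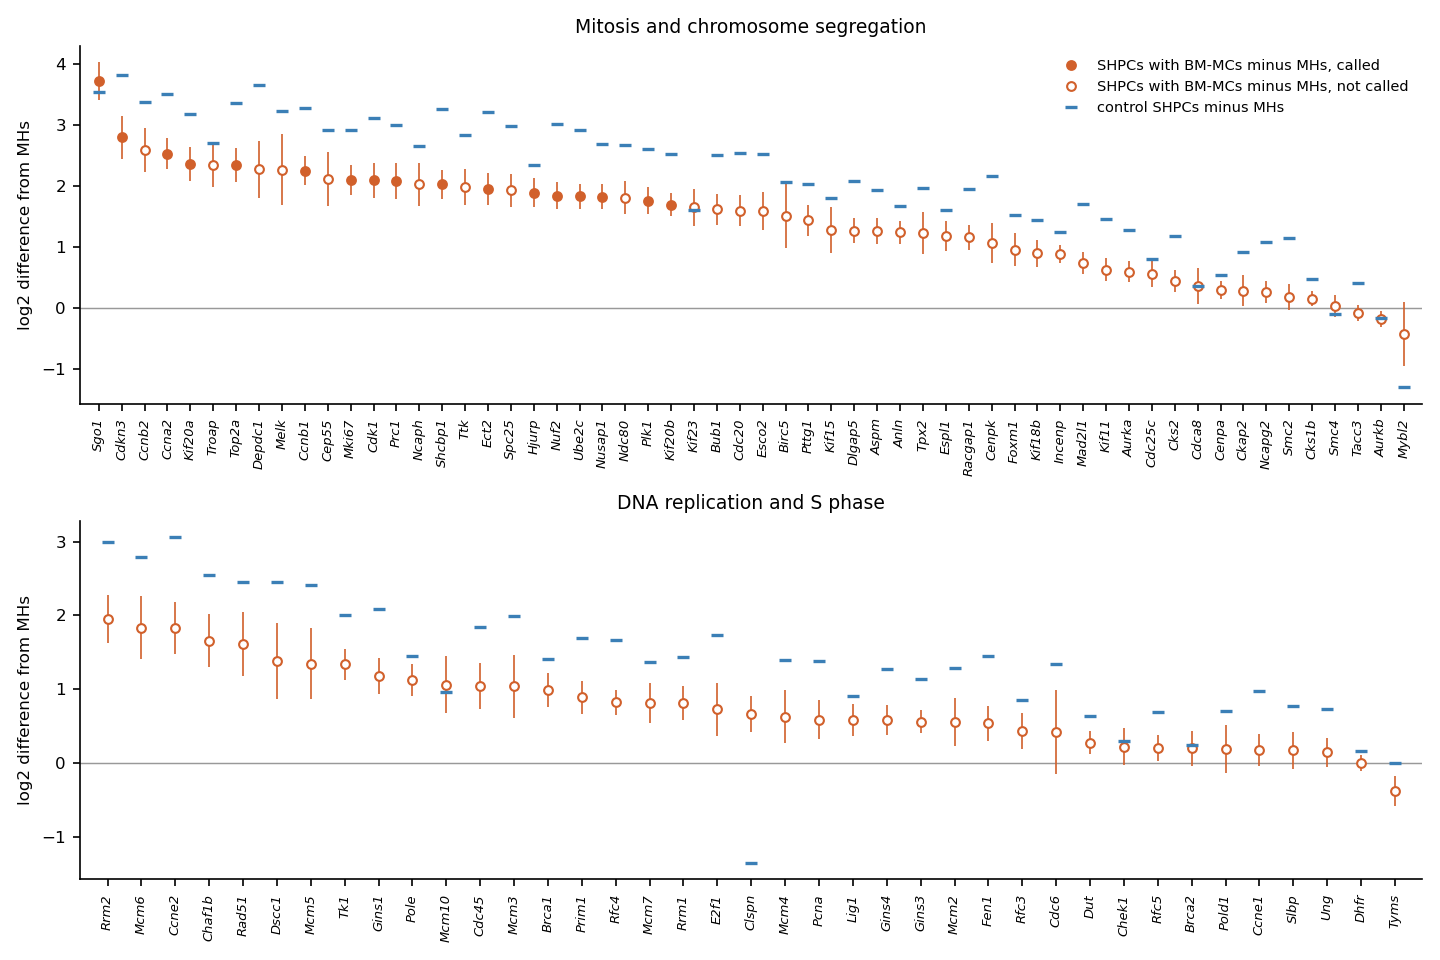
Difference from MHs on the log2 scale of each tested member of the mitosis list (58 genes, upper panel) and of the DNA replication list (39 genes, lower panel). Circles give SHPCs with BM-MCs minus MHs with the standard error of the fit, filled where called, and dashes give control SHPCs minus the same MHs. The called members are all in the upper panel, and most dashes lie above the circles.

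No gene of DNA replication was called. Of 50 listed, 49 had a probe and 39 were tested. limma called 0 of them with Benjamini-Hochberg adjustment, and 22 had an unadjusted p under 0.05 and a higher level, beside 6.86% of all genes tested. The median difference of the 39 was 0.66, with 37 above 0, beside 7109 of 14934 over all genes tested. Rrm2, a subunit of the enzyme that makes deoxynucleotides, was at -0.86 and -0.28 in MHs and at 1.05, 1.5 and 1.61 in SHPCs with BM-MCs, a difference of 1.95 (standard error 0.33, adjusted p = 0.089 from limma). Tk1, the thymidine kinase of S phase, was at -1.87 and -1.88 in MHs and at -0.91, -0.54 and -0.17 with BM-MCs, a difference of 1.34 (standard error 0.21, adjusted p = 0.0786). In both genes the SHPC samples with BM-MCs were all above the MHs without passing the adjusted test. Against the same MHs, control SHPCs had 14 called members of this list and a median of 1.38. By sample, the list median relative to the MHs was 0.42, 0.68 and 1.04 with BM-MCs and 1.47, 1.67 and 1.06 in control SHPCs.

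The promoters of 4 called mitosis genes are shown because this functional list held the most called genes. Mitotic genes are known to carry a CHR element (TTTGAA) and CCAAT boxes bound by NF-Y. Each is a window of 300 bases across the start of the gene in RefSeq, mostly upstream of it, 5′ to 3′ along the gene, and capitals mark TTTGAA and CCAAT on either strand.
Mki67 promoter, GRCr8 chr1:199952544-199952843, minus strand: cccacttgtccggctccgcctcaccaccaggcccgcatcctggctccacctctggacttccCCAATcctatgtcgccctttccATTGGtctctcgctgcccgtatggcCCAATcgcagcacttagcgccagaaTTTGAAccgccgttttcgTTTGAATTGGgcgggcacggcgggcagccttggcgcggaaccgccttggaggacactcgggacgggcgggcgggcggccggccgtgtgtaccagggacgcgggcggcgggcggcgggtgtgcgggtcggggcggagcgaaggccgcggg
Cdk1 promoter, GRCr8 chr20:19265043-19265342, plus strand: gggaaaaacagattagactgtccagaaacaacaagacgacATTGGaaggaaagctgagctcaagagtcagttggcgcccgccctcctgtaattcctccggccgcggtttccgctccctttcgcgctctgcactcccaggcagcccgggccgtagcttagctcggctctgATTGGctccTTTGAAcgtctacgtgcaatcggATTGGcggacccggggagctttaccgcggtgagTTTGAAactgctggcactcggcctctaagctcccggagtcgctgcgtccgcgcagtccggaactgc
Plk1 promoter, GRCr8 chr1:186147408-186147707, plus strand: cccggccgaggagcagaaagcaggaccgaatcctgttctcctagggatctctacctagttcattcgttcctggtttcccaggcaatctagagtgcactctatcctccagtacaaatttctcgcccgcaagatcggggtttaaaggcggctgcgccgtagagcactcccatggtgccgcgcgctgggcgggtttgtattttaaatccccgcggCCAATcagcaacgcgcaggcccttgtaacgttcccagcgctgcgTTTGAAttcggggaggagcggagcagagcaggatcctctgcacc
Top2a promoter, GRCr8 chr10:84473044-84473343, minus strand: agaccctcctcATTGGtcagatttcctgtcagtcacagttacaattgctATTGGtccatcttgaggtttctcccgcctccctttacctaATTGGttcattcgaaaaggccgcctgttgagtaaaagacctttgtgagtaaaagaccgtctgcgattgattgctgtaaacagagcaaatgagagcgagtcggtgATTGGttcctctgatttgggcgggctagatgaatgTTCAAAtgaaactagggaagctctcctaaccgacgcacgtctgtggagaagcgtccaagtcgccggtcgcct
In the Mki67 window a TTTGAA match and a CCAAT match share 1 base, as the run of capitals there shows. Of the 17 called members, 15 had a promoter in the RefSeq table, with 16 windows in all. TTTGAA stood in 11 of the 16 windows (68.8%) against 18.3% of all 33469 windows, and CCAAT in 13 (81.2%) against 37.5%. Both stood in 10 windows (62.5%) against 7.41% of all. GCGGGAA, a form of the E2F site of replication genes, stood in 0 of the 16 windows, beside 4.21% of all. Over the 51 windows of the tested members of the list, called or not, the shares were 68.6% for TTTGAA, 70.6% for CCAAT and 11.8% for GCGGGAA. These are matches of letters in a window, with no test.

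Outside cell division, Onecut1, a transcription factor of hepatocyte and biliary development, rose in SHPCs with BM-MCs. It was at 0.53 and 0.17 in MHs and at 2.14, 1.97 and 2.31 in SHPCs with BM-MCs, with the groups far apart relative to their spread. It differed by 1.79 (standard error 0.16, limma adjusted p = 0.0209), a 3.47-fold higher signal, and its other probe rose by 1.70 (adjusted p = 0.0209). Control SHPCs were at -0.16, -0.20 and -0.09, below both MHs, and their difference from MHs was -0.50 (adjusted p = 0.184). The call was lost without either MH sample or without control SHPC replicate 1 or 2, with differences of 1.61 to 1.98 over the samples left out and adjusted p values of 0.019 to 0.0691 from limma. LOC102549203 stood beside it, at -2.76 and -2.0 in MHs and at 0.50, 0.24 and 0.60 with BM-MCs. It was 7.07-fold higher (difference 2.82, standard error 0.24, adjusted p = 0.0209 from limma), and lost its call without MH replicate 1 or control SHPC replicate 2. The probes of both genes lie on the same strand, 37.4 kb apart in the rn4 annotation of the array, and are shown for that reason, with no part in capitals.
Onecut1 probe, rn4 chr8:79671988-79672047, plus strand: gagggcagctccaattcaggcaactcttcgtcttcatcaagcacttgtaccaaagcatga
LOC102549203 probe, rn4 chr8:79634548-79634607, plus strand: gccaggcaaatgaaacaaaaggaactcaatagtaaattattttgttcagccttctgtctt
Of 23 listed hepatocyte transcription factors, all were tested, and Onecut1 was the 1 called. The median of the list was 0.04, and Cebpa, a factor of the resting hepatocyte, was at 3.37 and 3.21 in MHs and at 3.33, 3.39 and 3.6 with BM-MCs, a difference of 0.15 (standard error 0.14, adjusted p = 0.651).

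Nr4a1, a nuclear receptor induced within minutes of growth factor and cAMP signals, was at -3.21 and -2.66 in MHs and at -0.75, -0.11 and 0.26 in SHPCs with BM-MCs. It was 6.64-fold higher (difference 2.73, standard error 0.30, adjusted p = 0.0304 from limma), with every BM-MC sample above every other sample. Control SHPCs lay between at -1.30, -1.30 and -1.11, and differed from SHPCs with BM-MCs by 1.03 (adjusted p = 0.176). Nr4a1 kept its call without BM-MC replicate 1 or 3 and lost it without each other sample. It was the 1 called member of the 29 tested of 38 immediate early and ERK feedback genes, whose median was 0.26, with 21 above 0. Jun, a subunit of AP-1, was at 0.24 and -0.06 in MHs and at 1.28, 1.29 and 0.55 with BM-MCs, without passing (difference 0.95, adjusted p = 0.28 from limma). Myc, a growth regulator, was at -0.75 and -0.34 in MHs and at 0.62, -0.22 and 0.17 with BM-MCs (difference 0.73, adjusted p = 0.332).

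Further called genes were chosen after their values were seen. Cish, an inhibitor of cytokine receptors that STAT5 induces, was at -4.18 and -3.75 in MHs and at -2.37, -2.44 and -1.89 in SHPCs with BM-MCs (difference 1.73, adjusted p = 0.0313 from limma). Control SHPCs were at -3.59, -3.69 and -3.62, above both MHs and below every sample with BM-MCs, and the difference from them was 1.4 (adjusted p = 0.0795). Sik1, a kinase induced by cAMP that restrains gluconeogenic genes, was at 0.81 and 0.92 in MHs and at 1.85, 2.17 and 2.23 with BM-MCs (difference 1.22, adjusted p = 0.038 from limma). Control SHPCs stood at 1.18, 0.92 and 0.98 for Sik1, near the MHs. Its other probe was higher by 0.94 and was not called (adjusted p = 0.171). Slc30a3, a zinc transporter, rose by 1.85 (adjusted p = 0.041 from limma), beside 1.94 in control SHPCs against the same MHs. Tppp3, a tubulin-binding protein, rose by 1.23 in both comparisons. Simc1 was at -2.48 and -2.37 in MHs and at -1.65, -1.65 and -1.56 with BM-MCs, a small but tightly measured difference of 0.81 (adjusted p = 0.0418 from limma).

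Genes that were dim in MHs made up part of the calls. Of the 46 genes called higher, 9 were not well above background in either MH sample, and for them the data give only a bound. They included 4 olfactory receptors, a large family of related smell receptors, Or4a70 (at least 4.49-fold higher), Or5m9 (at least 3.07-fold), Or7g34 (at least 2.77-fold) and Or10ag59 (at least 2.29-fold). Or4a70 was at -8.14 and -8.36 in MHs and at -3.72 and -4.40 in BM-MC replicates 1 and 2, a difference of 4.19 (adjusted p = 0.0179 from limma). The value of BM-MC replicate 3 was dropped as an outlier spot for Or4a70 and Or5m9, so that both rest on 2 samples with BM-MCs. Or10ag59 was at -8.25 and -8.47 in MHs and at -4.86, -4.76 and -5.48 with BM-MCs (difference 3.33, adjusted p = 0.014 from limma), and its call was lost without either MH sample. Or4a70 lost its call without either MH sample or without control SHPC replicate 2. Nxph2, a secreted ligand of neurexins, was at least 2.16-fold higher (adjusted p = 0.0304 from limma). These probes were not well above background in MHs and lay near -8 there, and whether they read a related gene was not tested.

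Of the 5 genes called lower in SHPCs with BM-MCs, Fhl5, a LIM-domain coactivator known from the testis, differed most. It was at -3.45 and -2.56 in MHs and at -7.82, -7.63 and -7.78 in SHPCs with BM-MCs, where it was not well above background, which makes it at least 6.78-fold lower (difference -4.74 on measured signals, standard error 0.29, adjusted p = 0.0121 from limma). Control SHPCs were at -8.10, -8.19 and -7.59, in the same range as the samples with BM-MCs. With each sample left out the difference lay between -5.19 and -4.29 and the adjusted p between 0.00589 and 0.0492. Its probe is shown because its call held with each sample left out, with no part in capitals.
Fhl5 probe, rn4 chr5:40267032-40267091, minus strand: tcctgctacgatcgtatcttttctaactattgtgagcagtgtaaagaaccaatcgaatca
LOC102556865 was at least 2.69-fold lower, at -4.85 and -3.83 in MHs and at -8.02, -7.36 and -7.95 with BM-MCs (adjusted p = 0.0271 from limma), and lost its call without either MH sample or without control SHPC replicate 1 or 2. Amer1, a membrane scaffold of the Wnt pathway, was at 0.55 and 0.01 in MHs and at -1.47, -1.49 and -1.24 with BM-MCs, a difference of -1.68 (standard error 0.19, adjusted p = 0.0304 from limma). Control SHPCs lay between at -0.69, -0.62 and -0.89. Scamp5, a protein of secretory vesicles, was lower by a difference of -1.41 (adjusted p = 0.0313 from limma), but its other probe gave -0.63 (adjusted p = 0.295). RGD1564712 was lower at -2.0 (adjusted p = 0.0489) and lost its call without any 1 of the 8 samples. Amer1 kept its call without BM-MC replicate 1 or 3, Scamp5 without BM-MC replicate 1, and both lost it without each other sample.

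Most tested genes of drug metabolism and antioxidant defence had a difference below 0, with none called by limma with Benjamini-Hochberg adjustment. Over all genes tested, 7825 of 14934 lay below 0, and 6.74% were lower at an unadjusted p under 0.05 from limma. Of 24 tested genes driven by Nrf2, the regulator of the antioxidant response, 22 had a difference below 0, 9 of them at an unadjusted p under 0.05, and the median was -0.38. By sample, this median relative to the MHs was -0.26, -0.42 and -0.45 with BM-MCs and -0.28, -0.36 and -0.51 in control SHPCs. Srxn1, which restores oxidised peroxiredoxins, was at 1.85 and 1.77 in MHs and at 1.11, 1.13 and 1.0 with BM-MCs, a difference of -0.73 (standard error 0.12, adjusted p = 0.0835 from limma). The groups did not overlap, and against the same MHs control SHPCs differed by -0.73 with an adjusted p of 0.0445. Abcc3, an export pump of the sinusoidal membrane, was at -3.09 and -3.34 in MHs and at -4.01, -4.37 and -5.13 with BM-MCs (difference -1.29, adjusted p = 0.24). Among 41 tested phase II genes, which attach water-soluble groups to drugs, 34 lay below 0, 11 of them at an unadjusted p under 0.05, with a median of -0.18. Gsta2, a glutathione transferase, came nearest to a call at 3.6 and 3.35 in MHs and 2.51, 2.30 and 2.55 with BM-MCs, a difference of -1.02 (standard error 0.15, adjusted p = 0.0545). Its relative Gsta5 was at -1.04 (adjusted p = 0.104), and paralogs of this family can share probe signal.

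Of 33 tested cytochrome P450 genes of families 1 to 3, 22 lay below 0, with a median of -0.22 and with 2 higher and 5 lower at an unadjusted p under 0.05. At that threshold 6.86% of all genes tested were higher and 6.74% lower. Cyp1a2, an oxidase of the pericentral hepatocyte, was at 5.23 and 4.92 in MHs and at 4.52, 4.70 and 4.36 with BM-MCs (difference -0.55, adjusted p = 0.272 from limma). Cyp1a1, induced by aryl hydrocarbons, was at -8.41 and -6.72 in MHs and at -5.78, -2.67 and -4.17 with BM-MCs, above both MHs in every sample but widely spread (adjusted p = 0.25). It was not well above background in either MH sample, and replicate 2 stood highest with BM-MCs. Cyp3a2, chosen after its values were seen, was at -3.0 and -2.75 in MHs and ran from -1.51 and -0.42 to 2.73 with BM-MCs. Its level in BM-MC replicate 3 thus stood apart from the other samples of that group, and its difference of 3.14 had an adjusted p of 0.32. Among bile acid genes and hepatic transporters, 20 of 31 tested lay below 0, with a median of -0.26, and Cyp7a1, the rate-limiting enzyme of bile acid synthesis, was at -1.55 without a call. In cholesterol synthesis 20 of 25 lay below 0 with a median of -0.19. Hmgcs1, which makes the precursor of mevalonate, was at 3.74 and 3.58 in MHs and at 3.04, 3.0 and 2.92 with BM-MCs, without overlap (difference -0.67, adjusted p = 0.103 from limma).

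Amino acid breakdown lay the other way. Of 42 listed genes of the urea cycle and amino acid catabolism, all tested, 37 were above 0, 9 of them at an unadjusted p under 0.05, and the median was 0.35, with 0 called by limma with Benjamini-Hochberg adjustment. Among all genes tested, 7109 of 14934 were above 0, and 6.86% were higher at an unadjusted p under 0.05. Sds, which deaminates serine, was at 2.54 and 1.90 in MHs and at 3.79, 4.27 and 4.79 with BM-MCs, 4.18-fold higher (difference 2.06, standard error 0.37, adjusted p = 0.11 from limma). Gpt, alanine aminotransferase, was at 1.59 and 1.33 in MHs and at 2.38, 2.78 and 3.1 with BM-MCs (difference 1.29, adjusted p = 0.251). Every BM-MC sample was above both MHs in both genes, and control SHPCs overlapped the samples with BM-MCs. Cps1, the entry enzyme of the urea cycle, was at 0.07 and 0.40 in MHs and at 0.91, 0.39 and 1.18 with BM-MCs, where the groups overlap. Glul at -0.97 and Oat at -0.89, enzymes of the pericentral hepatocyte that make and supply glutamine and glutamate, were the lowest of the 5 members below 0. Pck1, the entry enzyme of gluconeogenesis, was at 3.68 and 3.73 in MHs and at 4.32, 4.41 and 4.96 with BM-MCs (difference 0.86, adjusted p = 0.315). With the set of arrays as a block, a fit that rests on control SHPC replicate 3, the median of the amino acid list was -0.13.

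**Figure D3:**
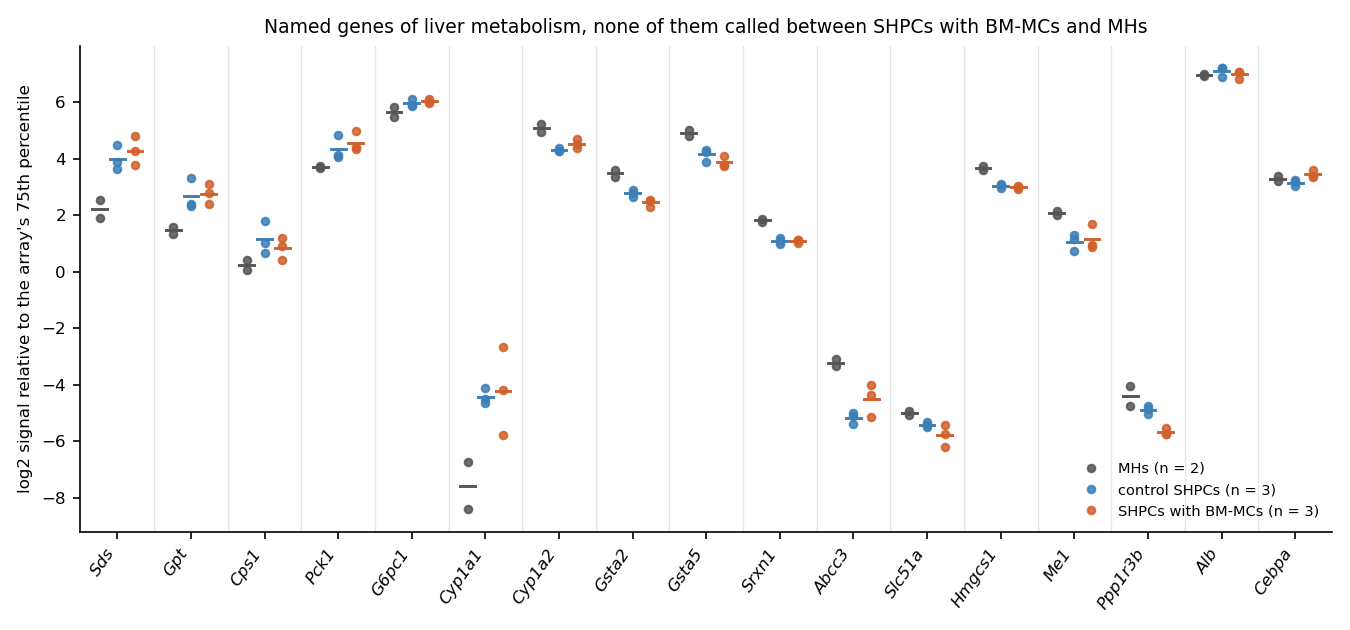
Level of 17 named genes of liver metabolism, as log2 signal relative to the 75th percentile of the array. Each dot is 1 sample and each bar a group mean. None was called between SHPCs with BM-MCs and MHs. In every BM-MC sample Sds, Gpt, Pck1, G6pc1 and Cyp1a1 lie above both MHs. Cyp1a2, Gsta2, Gsta5, Srxn1, Abcc3, Slc51a, Hmgcs1, Me1 and Ppp1r3b lie below both, and Cps1, Alb and Cebpa overlap. Over all genes tested, 15% lay above both MHs in every BM-MC sample and 18.1% below.

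Products by which hepatocytes are known were not called. Albumin (Alb) was at 7.01 and 6.91 in MHs and at 6.83, 7.05 and 7.06 with BM-MCs, a difference of 0.02 (standard error 0.15, adjusted p = 0.964 from limma). Over 51 secreted plasma proteins the median was 0.00, with 27 above and 24 below 0 and a range of -1.18 to 0.97. The complement protein C5 was at 0.97 (adjusted p = 0.311 from limma) and the apolipoprotein Apoa4 at 0.70 (adjusted p = 0.311). The acute-phase protein A2m was at 2.32 with overlapping groups (adjusted p = 0.343), and its other probe at 2.33 without overlap (adjusted p = 0.327). Afp, a fetal relative of albumin, was at 2.27 and 2.2 in MHs and at 2.87, 2.72 and 2.99 with BM-MCs (difference 0.63, adjusted p = 0.227). H19, an imprinted RNA abundant in fetal liver, was at -4.11 and -2.16 in MHs and at -0.36, 0.16 and 2.28 with BM-MCs, a difference of 3.83 (standard error 0.84) that did not pass (adjusted p = 0.194). The spread of H19 within both groups was wide, and control SHPCs were at 2.02, 2.67 and 2.58. Ggt1, a marker of fetal and biliary cells, was at -4.45 and -4.85 in MHs and at -3.21, -3.21 and -1.87 with BM-MCs (difference 1.89, adjusted p = 0.181). The median was 0.16 over 16 tested fetal genes and 0.28 over 17 tested biliary genes, with 0 called in each.

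**Figure D4:**
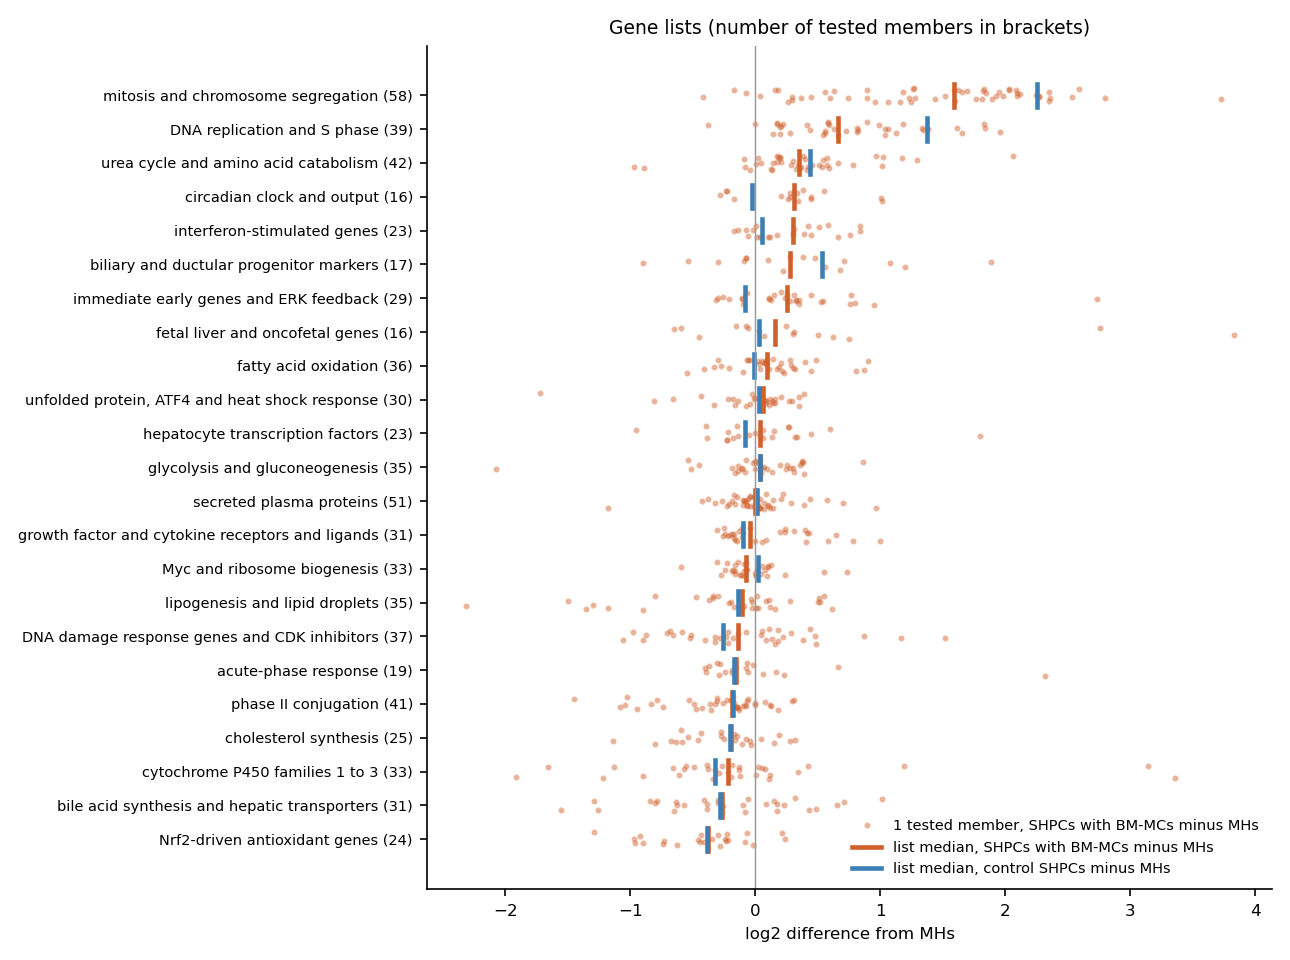
Difference from MHs on the log2 scale of each tested member of 23 gene lists, 1 dot per gene for SHPCs with BM-MCs minus MHs. Thick marks give list medians for SHPCs with BM-MCs and for control SHPCs against the same MHs, and the number of tested members stands in brackets. Mitosis has the highest median, at 1.59, and the Nrf2 list the lowest, at -0.38.

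The listed genes of the DNA damage response, the listed CDK inhibitors and the receptors that the study followed were not called. Of a list of 40 DNA damage response genes and CDK inhibitors, 37 were tested. Of these 37, 20 lay below 0 and the median was -0.14, with 0 called by limma with Benjamini-Hochberg adjustment. At an unadjusted p under 0.05, 3 were higher and 5 lower, beside 6.86% and 6.74% of all genes tested. The list is not a full set of such genes, and Rad51ap1 and Cdkn3, called above, are outside it. Cdkn1a (p21), an inhibitor of cyclin-dependent kinases, was at 3.84 and 3.44 in MHs and at 3.17, 3.20 and 1.94 with BM-MCs, lower in every sample but most of all in replicate 3 (difference -0.87, adjusted p = 0.401 from limma). Its other probe was at -0.81 with overlapping groups (adjusted p = 0.457). Cdkn1c (p57) was at -0.73 and -0.56 in MHs and at -1.32, -1.38 and -1.27 with BM-MCs, a difference of -0.68 (standard error 0.11, adjusted p = 0.0867), and its other probe was at -0.39 (adjusted p = 0.308). Il6r, the receptor of interleukin-6, was at 0.35 and 0.64 in MHs and at 0.38, 0.32 and 0.35 with BM-MCs (difference -0.15, adjusted p = 0.662 from limma). Kit, the receptor of stem cell factor, gave -0.13 (adjusted p = 0.884), and its other probe gave 0.65 (adjusted p = 0.755), both with overlapping groups. Egfr, the receptor of epidermal growth factor, was at 1.4 and 1.26 in MHs and at 1.55, 1.63 and 1.98 with BM-MCs, above both MHs in every sample (difference 0.39, adjusted p = 0.426). Its other probes were at 0.47 and 2.42, likewise without overlap and without a call. Il17rb, a receptor of interleukin-25, was at -5.69 and -5.39 in MHs and ran from -4.99 and -5.30 to -6.94 with BM-MCs (difference -0.20, standard error 1.34, adjusted p = 0.961), a spread too wide to order the groups. Cd44, an adhesion receptor of small hepatocytes, was at -1.90 and -1.95 in MHs and at -2.74, -2.59 and -3.12 with BM-MCs (difference -0.90, adjusted p = 0.371).

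Markers of other liver cells were present in both groups. Of 18 Kupffer cell and macrophage genes, all tested, 16 lay below 0 with a median of -0.39 and 0 called by limma with Benjamini-Hochberg adjustment, and their summed signal was 122 times the 75th percentile in both MHs and 77.1 to 106 with BM-MCs. With the set of arrays as a block their median was 0.12. Summed markers of sinusoidal endothelium were at 23.1 to 27.2 in MHs and 22.9 to 25.1 with BM-MCs, and those of stellate and other mesenchymal cells at 16.3 to 16.9 and 14.6 to 21.2, ranges that overlap. Cholangiocyte markers summed to 0.335 to 0.388 in MHs and to 0.451 to 0.590 with BM-MCs, without overlap. Lymphocyte markers were at 5.25 to 6.62 and 5.64 to 6.91, and erythroid markers at 19.9 to 40 and 15.1 to 21.2. Of 12 granulocyte markers, 8 were not well above background on any of the 5 arrays. The part of these cells in the differences above was not tested.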

How the data were processed

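RNA of cells captured by LMD was amplified, labelled with Cy3 and hybridised to Agilent rat arrays. The authors deposited, per array, the processed signal of Agilent Feature Extraction 10.7 (version from the submitters' processing notes), an intensity from which the software had subtracted background, with no scaling between arrays, and a table of the same signals. Control SHPC replicate 2 has a scanner file cut short at 20903 of 62976 features. Its values were read from the deposited table, and its background marks were not used. The authors analysed the arrays with Multiple Experiment Viewer and a Student test, which is an alternative here, called the methods' t-test.

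From the deposited intensities, log2 values were centred on each array's 75th percentile (1254 to 1742 signal units), outlier spots were left out and spots of a probe averaged. Probes marked well above background on 2 or more of the 5 compared arrays entered limma 3.58.1, run in R 4.3.3 (lmFit and eBayes, 3 groups, all 8 samples) with Benjamini-Hochberg adjustment. A gene was read at its brightest tested probe. Of 45598 probes, 21109 were named by accession, 6684 by symbol and 424 by synonym through RefSeq, 7635 kept the name in the file, and 9746 had none. Probe coordinates follow the scanner header (rn4), and promoters are RefSeq windows of GRCr8.

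Named genes were the 15 with the largest change in each direction among called genes without overlap, and all called genes where fewer passed, then genes at least 2-fold apart with the lowest unadjusted p up to 8. To these were added up to 4 called members of each list, or else the 2 with the lowest p, and genes the study names in captured cells. A few genes are not reported here. The comparison and the lists were chosen with earlier results of these data known. Alternatives were another scaling, filter, background correction, variance model, probe rule or test, a block and leaving out each sample. The model code was tested on simulated data.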

Additional observations from a re-analysis of the deposited data

Results flagged for a closer look

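For 5 called genes the difference from MHs itself was not the same in control SHPCs as with BM-MCs by the limma fit with Benjamini-Hochberg adjustment, with the MHs shared by both. Onecut1 was higher with BM-MCs than in control SHPCs by 2.29 (adjusted p = 0.00829 from limma). LOC102549203, whose probe lies on the same strand of the same chromosome, was higher by 2.23 (adjusted p = 0.048). The other 3 genes were not well above background in MHs or in the control SHPC samples with complete marks, so that only a bound of the difference is known. Or4a70 was at least 3.57-fold higher than in control SHPCs, Or10ag59 at least 1.82-fold, and LOC102555038, chosen after its values were seen, at least 1.37-fold. On the measured dim signals limma gave 3.87 (adjusted p = 0.0209), 3.0 (adjusted p = 0.0176) and 1.27 (adjusted p = 0.0329). Control SHPC replicate 3, the 1 control that shared a set of arrays with the samples with BM-MCs, was at -0.09 for Onecut1, -1.66 for LOC102549203, -7.74 for Or10ag59 and -7.63 for Or4a70, below every sample with BM-MCs in each. Groups of 2 or 3 samples are too small for a test of single outlying samples.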

How the results depend on the processing

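Of 24 alternatives, several ended the calls, and the direction of the 22 called genes named held in each that tested them. The set block rests on control SHPC replicate 3, and MHs had 2 samples. The counts below are probes higher, probes lower and called mitosis genes, which were 64, 9 and 17, and the cause of each change was not tested. Scaling to the median gave 28 higher (split 28 to 11) and 5 mitosis genes, and put the median of all probes at -0.19. Quantile scaling gave 7, 4 and 1 (split 7 to 4). No filter gave 0, 1 and 0 and put that median at 0.20. Normexp gave 8, 4 and 1, the 5 compared samples alone 1, 5 and 0, and an intensity trend 111, 19 and 29. The methods' t-test gave 1018, 1175 and 40 unadjusted and 0, 0 and 0 adjusted. The replicate block gave 0, 0 and 0, and the set block 0, 4 and 0. Lower probes were 4 with at least 3 of 7 arrays above background, 5 with all 5, and 5 with 1 probe per gene. Leaving out 1 sample gave 0 to 135 higher, 3 to 14 lower and 0 to 28 mitosis genes. Same-numbered samples correlated at -0.11 to 0.14 in their deviations, and differently numbered ones at -0.14 to 0.11. Between control SHPCs and SHPCs with BM-MCs, same-numbered samples stood at 0.13, 0.07 and 0.14, and the others at -0.14 to 0.06. Deviations within groups of 2 or 3 samples cannot decide whether the numbers pair samples. Under the replicate block Fhl5 was at -4.82 (adjusted p = 0.0894 from limma) and Onecut1 at 1.74 (adjusted p = 0.103). Over the alternatives that tested them, Fhl5 passed in 18 of 21 (adjusted p 0.000912 to 0.429), Onecut1 in 14 of 23 (0.00381 to 0.465) and Mki67 in 10 of 23 (0.00737 to 0.481). The mitosis median ranged from 0.73 to 1.82. Of 32 gene lists, 16 changed the sign of their median in some alternative. Genes not called that changed sign were Alb (-0.18 with the median, -0.061 unscaled, -0.029 with the replicate block, -0.15 with the set block), Cebpa (-0.045 with the median), Cdkn2a (-0.027 with quantiles) and Il17rb (0.19 at the floor). Leaving out 1 sample gave -0.029 to 0.094 for Alb, -0.11 to 0.56 for Cdkn2a, -0.58 to 0.40 for Il17rb and -0.62 to 0.37 for Kit. With the set block the sign changed for Cebpa (-0.0023), Cd44 (0.32), Cps1 (-0.34), Egf (-0.022), Egfr (-0.033), Hbegf (-0.039) and Il6r (0.070).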

Other observations

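Lipid synthesis genes were not called. Among 35 tested genes of lipogenesis and lipid droplets, 22 lay below 0 with a median of -0.11, and the fatty acid desaturase Scd (-2.31), the lipogenic regulator Thrsp (-1.50) and the fatty acid synthase Fasn (-1.35) were far below it. Fatty acid oxidation had a median of 0.10 over 36 genes, with its gatekeeper Cpt1a at 2.57 and 2.55 in MHs and at 2.78, 3.17 and 3.18 with BM-MCs. These genes were chosen after their values were seen, except Cpt1a. The SHPC samples with BM-MCs were all above the MHs for Cpt1a without passing (adjusted p = 0.339 from limma).

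Interferon-stimulated genes lay slightly higher, with a median of 0.30 over 23 tested genes, 18 of them above 0 and 0 called by limma with Benjamini-Hochberg adjustment (6 at an unadjusted p under 0.05 and higher, 0 lower). The unadjusted shares over all genes tested were 6.86% higher and 6.74% lower. Isg15, a ubiquitin-like protein that interferon induces, was at -0.50 and -0.53 in MHs and at 0.59, -0.17 and 0.55 with BM-MCs. By sample the list median relative to the MHs was 0.48, -0.03 and 0.22 with BM-MCs, so that replicate 2 did not share the difference. Over 16 tested clock genes the median was 0.31, with 12 above 0, and by sample it was 0.27, 0.41 and 0.42 with BM-MCs against 0.19 and -0.19 in MHs.

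Probes of 1 gene could disagree. For Pcbd1, chosen after its values were seen, a probe that the scanner file places at rn4 chr3:34659905-34659964 was not well above background in SHPCs with BM-MCs and at least 2.05-fold lower (-3.01 on measured signals, adjusted p = 0.014 from limma), while the probe at chr20:28453710-28453769 was at 0.17 (adjusted p = 0.615).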
